A study of Mus musculus with 5 samples.

Results

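The 48 genes described here encode the machinery that licenses origins of DNA replication and runs the replication fork: the origin recognition complex (ORC), the MCM helicase and its loaders, the GINS complex, the clamp loader RFC, the replicative polymerases, the single-strand binding protein RPA and the fork protection factors. Members were taken by symbol: every probe set of the array whose annotation gives 1 of these symbols as its only gene symbol. All 48 genes were found, on 103 probe sets, among 18193 genes and 45037 probe sets in all. Their RNA was read on Affymetrix arrays from sorted mouse KLS cells, which carry c-Kit and Sca-1 and no lineage markers and hold the haematopoietic stem cells and early progenitors. The 2 control arrays, titled wild type, came from mice of genotype Rb +/+ p130 +/+ p107+/-, so the controls themselves lacked 1 copy of p107. The 3 deficient arrays came from mice given as Rb -/- p130 -/- p107-/-, a genotype that names the genes of all 3 pocket proteins. The proteins themselves were not measured on these arrays. In both groups the labels give the Mx1Cre system, a recombinase under an interferon-responsive promoter that acts in many cells besides stem cells, with recombination induced in mice of 6 weeks and cells sorted 2 months later. The study hybridised 1 further array and left it out for high background. Whether the arrays of a group came from separate mice or from pools is not given in the labels; the p-values thus reflect the spread between these samples alone, which may be technical.

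A cell may start replication once per origin in each cycle. ORC marks origins in G1, Cdc6 and Cdt1 load the MCM ring there, and the kinases Cdc7-Dbf4 and CDK2 then turn the ring into an active helicase by recruiting Cdc45 and GINS. Many of these genes are classic targets of E2F transcription factors, which the pocket proteins RB, p107 and p130 bind and restrain. In bone marrow most long-term stem cells are quiescent, while the downstream progenitors in the same sort divide.

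Most replication genes had a slightly higher mean in deficient cells, and none of them passed the threshold. Differences are deficient minus control on the log2 scale of RMA intensity, and the threshold is an adjusted p under 0.05 (limma, Benjamini-Hochberg over all 18193 genes, 1 probe set per gene). Of the 48 members, 40 had a higher mean in deficient cells, a share of 83.3% against 48.1% of all genes and 49.9% of the brighter genes, those at or above the median of all probe sets. The median difference over the members was 0.31 against -0.01 over all genes. In limma no member passed: 0 were called higher and 0 lower, where 2.24% of all genes were called, 0.83% higher and 1.41% lower (1.3% higher among the genes that read at or above the median of all probe sets). An adjusted p under 0.1 was reached by 3 members, all higher (2.61% of all genes). With unadjusted p-values, 15 members were higher below 0.05 (31.2%, against 8.79% of all genes) and 0 were lower (against 9.86%). Every deficient array lay above both controls for 29 members (60.4%, against 16.5% of all genes and 21% of the genes that read at or above the median of all probe sets), and below both for 0 (against 18.6%). Over the 103 member probe sets 88 had a higher mean and 0 passed either way (0.164% of all probe sets were called higher), with a smallest adjusted p of 0.0745. In bulk RNA, more cells in cycle and more of a transcript per cell cannot be told apart.

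**Figure D1:**
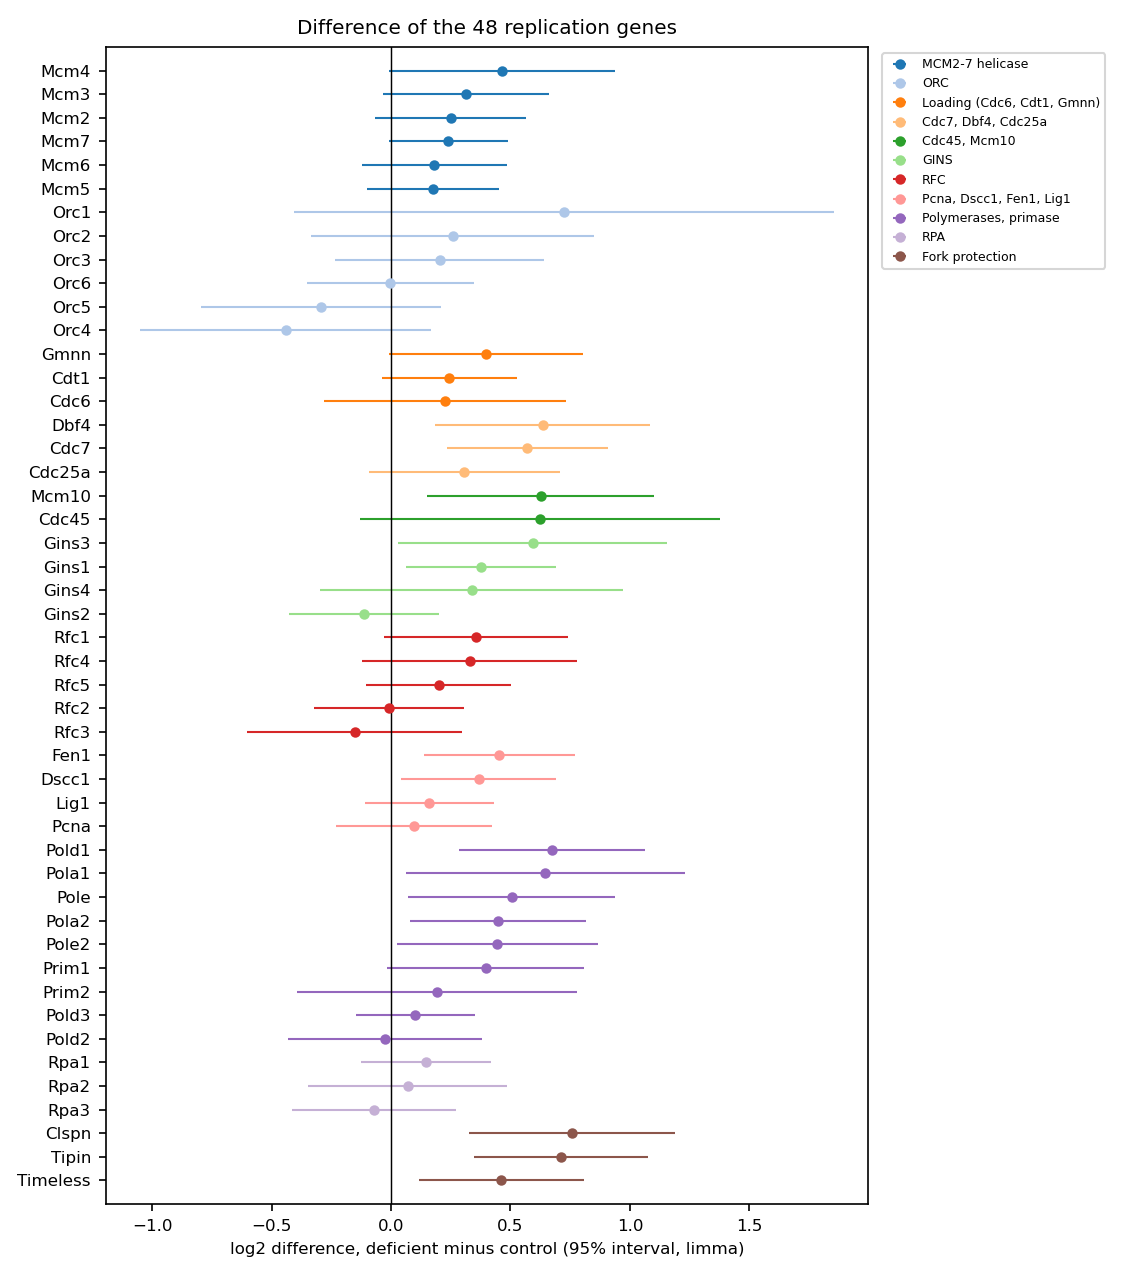
Difference in log2 intensity (horizontal axis, deficient minus control) of each of the 48 genes, grouped and coloured by sub-complex; points are limma estimates over 2 control and 3 deficient arrays and bars their 95% intervals. The intervals of the 15 members with an unadjusted limma p under 0.05 lie wholly to the right of 0. The 3 fork protection genes are among them, while ORC spreads from -0.44 (Orc4) to 0.72 (Orc1).

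The size of these differences turned on which control array was used. Control 1 was the lowest of the 5 arrays for 37 of the 48 members, and control 2 for 5. Control 1 read below control 2 for 42 members, with a median gap of 0.37, whereas over all genes the median gap was 0.01 and 51.4% of genes read lower in control 1. Every deficient array lay above control 1 for 42 members (29.9% of all genes) and above control 2 for 29 members (27.5% of all genes). Without control 1 the median member difference was 0.13 and 34 members had a higher mean. Without control 2 the median was 0.47, 46 members had a higher mean and 1, Cdc45, passed in limma. The 3 deficient arrays were closer to each other: the median SD of a member was 0.13 over them and 0.26 over the 2 controls.

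**Figure D2:**
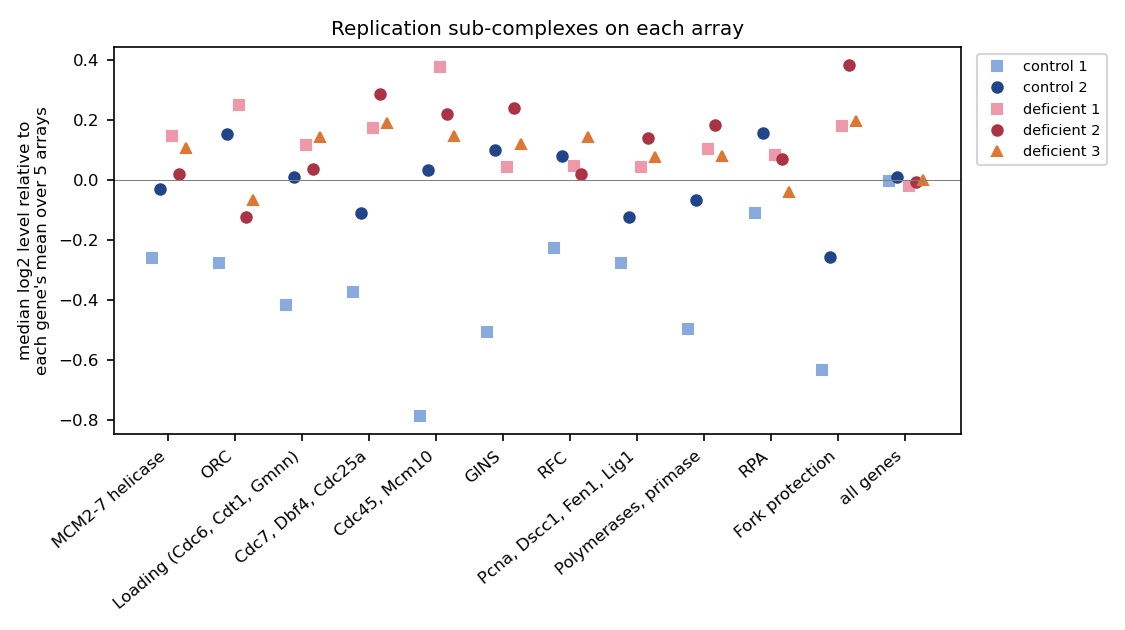
Median log2 level of each sub-complex on each of the 5 arrays, relative to each gene's mean over the arrays; each marker is 1 array, and the last column gives all 18193 genes. Control 1 is the lowest array in each of the 11 groups plotted, while the arrays lie near 0 over all genes.

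The whole series sets limits that touch these values. Median intensity ran from 26.1 to 26.7, and RMA forces arrays to a common distribution. As a check of the labels, Rbl1, the gene of p107, fell in limma (difference -3.04, SE 0.40, adjusted p = 0.0266), while Rb1 (-0.36, adjusted p = 0.664) and Rbl2 (-0.46, adjusted p = 0.374) did not pass. Where their probes lie relative to the deleted parts is not given in the sources used here. Mki67, a marker of cycling cells, read 11.32 and 11.44 in controls and 12.45, 12.56 and 12.45 in deficient arrays. Among markers of the sort, Kit, the c-Kit receptor, read between 10.83 and 11.25 on the 5 arrays. Of the genes listed with Kit, Cd34 differed by 0.03, Flt3 by -0.32 and Slamf1 by -0.33. All 4 overlapped between the groups, and 0 were called. Sca-1 (Ly6a) was not named in the annotation used here. Markers of other cells moved with the groups: summed intensity of 10 measured neutrophil genes ran from 49644 to 60681 in controls and from 1352 to 2363 in deficient arrays, with 9 of the 10 called lower. For 9 B and plasma cell genes the sums were 13742 to 16498 and 628 to 781, with 3 called lower. Those called were Igha (-7.88) and Jchain (-7.48), the brightest of the list in controls, and Igll1 (-1.77). All 9 had a lower mean, by as little as -0.0034 (Pax5), and 2 overlapped between the groups. The sums for 10 macrophage and dendritic genes were 5058 to 7763 and 2230 to 2707. For these, 1 of the 10 was called lower. The sums for 10 T and NK cell genes overlapped between the groups (1825 to 2627 and 2444 to 3232), but 8 of the 10 had a lower mean and 2 were called lower, Klrd1 (-2.36, adjusted p = 0.0020) and Cd247 (-1.43, adjusted p = 0.0356). Nkg7, the brightest of the list, was higher on every deficient array (0.63, adjusted p = 0.152), and Cd3g read 7.26 on control 2 and 3.79 or less elsewhere. The sums for 7 erythroid genes overlapped too (2114 to 3328 and 2397 to 4719), with 0 of the 7 called. The 3' minus 5' signal of beta-actin was 3.14 ± 0.03 (SD, n = 2) in controls and 3.42 ± 0.10 (SD, n = 3) in deficient arrays, and 18S ribosomal RNA 10.40 ± 0.07 and 9.76 ± 0.10 (exact permutation test, two-sided p = 0.1 for each, the smallest that 10 splits allow). For Gapdh the 3' minus 5' signal was 4.64 ± 0.10 (SD, n = 2) and 4.66 ± 0.21 (SD, n = 3; exact permutation test, two-sided p = 0.9). Xist and Eif2s3y set deficient 2 apart (Eif2s3y read 3.50 there and at least 9.81 on the other arrays), and Xist also read 10.67 on control 2. The part of any of these in the replication gene values was not tested.

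The promoters of many of these genes hold letters that E2F factors recognise. RefSeq windows of 300 bases (250 before to 50 after a gene's start, GRCm38.p6) were found for 38 of the 48 members, 47 windows in all. They were searched on both strands for the E2F letters TTTCCCGC, TTTGGCGC, TTTCGCGC and TTTGCCGC, which can overlap each other on opposite strands. A match lay in 17 of the 47 windows (36.2%), 1 for each of 17 genes, against 2.26% of all 32851 windows. The NF-Y letters CCAAT were in 53.2% of member windows and 37.4% of all, and the CHR letters TTTGAA or TTCGAA in 21.3% and 19.2%. A match is only a run of letters and says nothing of binding in these cells.
The windows below show such matches in capitals, 5′ to 3′ on the gene's strand, for the helicase genes Mcm5 and Mcm6, the loader gene Cdc6, the phosphatase gene Cdc25a, an ORC gene and a primase-polymerase gene, and in 30 bases past the start for the members Clspn and Pold1, which differed most in their groups.
Mcm5 (chr8:75109336-75109387, + strand): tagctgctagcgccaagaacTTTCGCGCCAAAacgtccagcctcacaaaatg
Mcm6 (chr1:128359725-128359835, - strand): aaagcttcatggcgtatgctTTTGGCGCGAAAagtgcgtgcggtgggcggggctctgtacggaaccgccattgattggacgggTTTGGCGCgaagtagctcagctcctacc
Cdc6 (chr11:98907993-98908040, + strand): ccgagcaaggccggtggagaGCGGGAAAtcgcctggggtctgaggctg
Cdc25a (chr9:109875492-109875539, + strand): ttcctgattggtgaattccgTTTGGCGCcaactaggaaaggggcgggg
Orc1 (chr4:108579407-108579453, + strand): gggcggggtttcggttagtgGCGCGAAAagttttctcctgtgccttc
Pola1 (chrX:93632266-93632313, - strand): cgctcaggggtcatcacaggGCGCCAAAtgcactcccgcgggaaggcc
Clspn (chr4:126556990-126557019, + strand): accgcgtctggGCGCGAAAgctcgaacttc
Pold1 (chr7:44548766-44548795, - strand): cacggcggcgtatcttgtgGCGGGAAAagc
Mcm5 and Mcm6 hold overlapping matches on the 2 strands, and Mcm6 a further one nearer the start. The 17 genes with a match had a median difference of 0.24 (from -0.15 to 0.76), and 16 had a higher mean. The 21 genes in the table without one had a median of 0.26 (from -0.44 to 0.63), and 16 had a higher mean. The 2 medians differed by little beside the range within each set. Of the larger differences described below, Clspn (0.76), Orc1 (0.72), Pold1 (0.67) and Pola1 (0.65) belong to genes with a match. Dbf4 (0.63), Cdc7 (0.57) and Timeless (0.46) have no match in their windows. The 10 members without a window had a median difference of 0.37 (from -0.11 to 0.71).

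Origin recognition came first in the order of assembly and was the group that differed most within itself. ORC is the ATPase that sits on origins; Orc1 is the subunit whose level varies with the cell cycle, and Orc2 to Orc5 form a more stable core. Of its 6 genes 3 had a higher and 3 a lower mean, all 6 overlapped between the groups, and the median difference was 0.10. Orc1 read 6.10 and 7.42 in controls and 7.85, 6.83 and 7.77 in deficient cells. Control 1 stood low, and deficient 2 lay below control 2, so the groups overlapped (difference 0.72, SE 0.46, adjusted p = 0.499). Without control 1 the Orc1 difference was 0.06, and without control 2 it was 1.39.
Orc4 ran the other way, at 8.18 and 8.88 in controls and 8.33, 7.81 and 8.12 in the deficient ones (a difference of -0.44, SE 0.25, adjusted p = 0.432). Its probe sets disagreed: a dimmer one was higher on every deficient array (difference 0.39, adjusted p = 0.219 over all probe sets), while another differed by -0.31. Orc5 read 9.62 and 9.41 in controls and 9.59, 9.14 and 8.94 in the deficient ones (a difference of -0.29, SE 0.21, adjusted p = 0.550), with deficient 1 among the controls. Orc2 (0.26), Orc3 (0.20) and Orc6 (-0.0027) filled the middle. Without control 1 the ORC median was -0.12, and without control 2 it was 0.32.

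Loading factors had slightly higher means, by 0.40 at most. Cdc6 and Cdt1 bring the MCM ring to ORC, and Gmnn encodes geminin, the inhibitor that holds Cdt1 after origins have fired. Gmnn read 11.02 and 11.52 in controls and 11.63, 11.73 and 11.65 in deficient cells, with every deficient array above both controls (difference 0.40, SE 0.17, adjusted p = 0.279). Cdt1, at 12.32 and 12.52 against 12.67, 12.61 and 12.71, was separated as well (difference 0.24, SE 0.12, adjusted p = 0.343). On another Cdt1 probe set deficient 2 lay below control 2 (difference 0.24, adjusted p = 0.585 over all probe sets). Cdc6 read 9.56 and 10.12 in controls and 10.30, 9.90 and 9.99 in deficient cells. Its control 2 lay inside the deficient range (difference 0.23, SE 0.21, adjusted p = 0.669), and without control 1 the sign turned (-0.05). Inhibitor and loaders thus differed in the same direction, with a group median of 0.24 that was 0.15 without control 1 and 0.51 without control 2.

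The MCM genes, whose products form the ring of the replicative helicase, all differed the same way, by small amounts. On the brightest probe set of each, all 6 had a higher mean (100%, against 48.1% of all genes). Every deficient array lay above both controls for all 6 (100%, against 16.5% of all genes and 21% of the brighter genes). Differences ran from 0.18 to 0.46, with a median of 0.24. None passed (smallest adjusted p = 0.279). Mcm4 had the largest difference, with 11.22 and 11.54 in controls and 12.12, 11.56 and 11.85 in deficient cells (0.46, SE 0.20). Deficient 2 exceeded control 2 only slightly.
The brightest probe set of Mcm7 read 13.45 and 13.50 in controls and 13.74, 13.68 and 13.72 in the deficient ones (a difference of 0.24, SE 0.10, adjusted p = 0.289). On this probe set the difference was 0.22 without control 1 and 0.26 without control 2. Its other 3 probe sets gave 0.17 to 0.21 with control 1 the lowest array on each, and on 1 of them control 2 lay inside the deficient range. Mcm3 read 11.19 and 11.53, then 11.72, 11.57 and 11.75 (difference 0.31, SE 0.14, adjusted p = 0.317). On each of its other probe sets the groups overlapped, with differences from 0.19 to 0.41.
The smallest difference of the ring was that of Mcm5, at 12.57 and 12.74 against 12.89, 12.78 and 12.82 (0.18, SE 0.11, adjusted p = 0.503). Mcm2 differed by 0.25 and Mcm6 by 0.18. All 19 probe sets of the 6 genes had higher means, which overlapping probe sets of the same transcripts share. Without control 1 the MCM median was 0.14, and without control 2 it was 0.34.

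Genes of the kinase step that fires origins had a median difference of 0.57, beside 0.24 for the ring they act on; the gap between the groups was not tested. Cdc7 is the kinase that phosphorylates MCM, Dbf4 its activating subunit, and Cdc25a the phosphatase that activates CDK2. Cdc7 read 9.26 and 9.10 in controls and 9.56, 9.81 and 9.88 in deficient cells. All deficient arrays stood above both controls (difference 0.57, SE 0.14, adjusted p = 0.1004), and here control 1 was the higher control, so that the difference was 0.65 without control 1 and 0.49 without control 2.
Dbf4 was separated too, at 9.20 and 9.75 against 10.03, 10.25 and 10.05 (difference 0.63, SE 0.19, adjusted p = 0.143). Cdc25a read 9.32 and 9.69 in controls and 9.94, 9.63 and 9.86 in deficient cells, with deficient 2 below control 2 (difference 0.31, SE 0.16, adjusted p = 0.402). Another Cdc25a probe set did not overlap (difference 0.55, adjusted p = 0.203 over all probe sets). The group median of 0.57 was 0.36 without control 1. It was 0.29 when all probe sets of a gene were averaged, since Cdc7 and Dbf4 each have a further probe set that read below 5 and differed by 0.05 and -0.11.

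**Figure D3:**
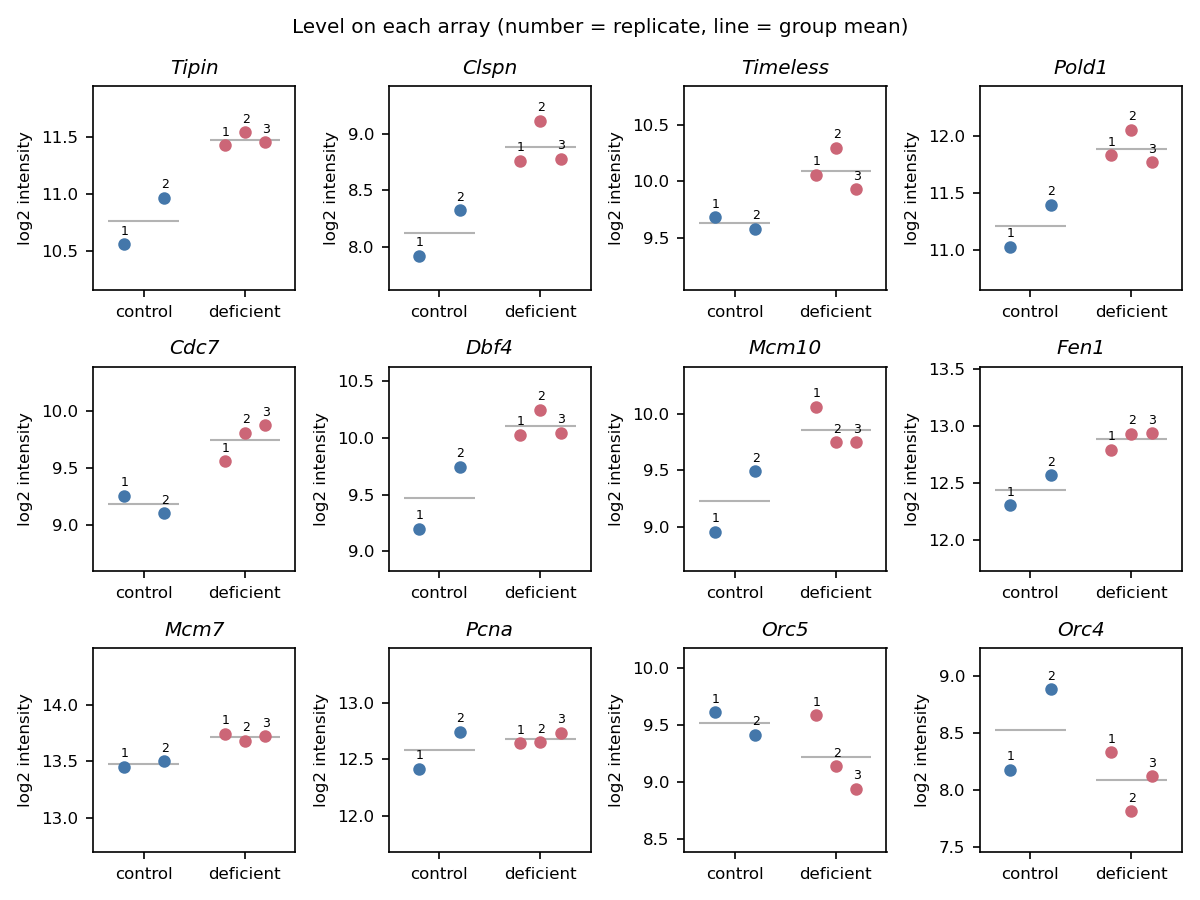
Log2 intensity (vertical axis, each panel spanning the same range) of 12 genes on each array, with controls in blue, deficient arrays in red, the replicate number at each point and a line at the group mean. Each gene is shown by its brightest probe set. In Tipin, Clspn, Timeless, Pold1, Cdc7, Dbf4, Mcm10, Fen1 and Mcm7 the groups are apart there, and in Pcna, Orc5 and Orc4 they overlap.

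The proteins that turn the MCM ring into an active helicase are Cdc45, the 4-part GINS complex and Mcm10. Mcm10 read 8.96 and 9.49 in controls and 10.06, 9.75 and 9.75 in deficient cells, apart on every array (difference 0.63, SE 0.20, adjusted p = 0.163). Cdc45 differed by nearly the same amount (0.62, SE 0.31, adjusted p = 0.365), but on a single low array: it read 8.18 on control 1 and 9.30 on control 2, against 9.41, 9.41 and 9.27. Without control 1 the Cdc45 difference was 0.07, and without control 2 it was 1.18, which passed (adjusted p = 0.0459).
Among the GINS genes, Gins1 was separated, with 10.46 and 10.74 in controls and 10.91, 11.04 and 10.99 in the deficient ones (a difference of 0.38, SE 0.13, adjusted p = 0.194). Gins3 read 6.88 and 7.61, then 7.65, 7.87 and 7.99 (difference 0.59, SE 0.23, adjusted p = 0.248), and its other probe set was lower on every deficient array (difference -0.33, adjusted p = 0.517 over all probe sets). Gins4 read 8.82 and 9.71 against 9.50, 9.75 and 9.55, with control 2 above deficient 1 and 3 (difference 0.34, SE 0.26, adjusted p = 0.593).
The lowest difference of the 4 was that of Gins2, which read 9.995 and 10.26 in controls and 9.92, 10.09 and 10.03 in the deficient ones (a difference of -0.11, SE 0.13, adjusted p = 0.746). Its other probe set gave 0.0037, so its direction was not settled. The GINS median of 0.36 was 0.06 without control 1 and 0.65 without control 2.

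Polymerase and primase genes had a median of 0.45 over 9 genes, of which 8 had a higher mean, 7 were above both controls on every deficient array (77.8%, against 16.5% of all genes) and 5 had an unadjusted p under 0.05 (55.6%, against 8.79%). Polymerase alpha with primase lays the first primers, epsilon copies the leading strand, and delta the lagging strand. Pold1, the catalytic subunit of delta, read 11.03 and 11.40 in controls and 11.83, 12.06 and 11.77 in deficient cells. Every deficient array lay above both controls (difference 0.67, SE 0.16, adjusted p = 0.0949), and the other Pold1 probe set gave 0.66. The small delta subunit Pold2 did not follow it, at 10.53 and 10.97 against 10.84, 10.58 and 10.76 (difference -0.02, SE 0.17, adjusted p = 0.964).
Pole, the catalytic subunit of epsilon, read 10.04 and 9.72 in controls and 10.27, 10.65 and 10.24 in the deficient ones (a difference of 0.50, SE 0.18, adjusted p = 0.205), and its partner Pole2 differed by 0.45. Pola2, the regulatory subunit of alpha, read 9.42 and 9.81, then 9.98, 10.15 and 10.06 (difference 0.45, SE 0.15, adjusted p = 0.189). The catalytic subunit gene Pola1 differed by 0.65 and the primase genes Prim1 and Prim2 by 0.40 and 0.19. Pold3 differed by 0.10 on its brightest probe set, and by 0.42 and 0.26 on its dimmer ones. The polymerase median was 0.21 without control 1 and 0.64 without control 2.

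Over all 5 arrays, clamp and lagging-strand genes had smaller median differences than the polymerases, with no test of that gap. PCNA is the sliding clamp, the RFC complex loads it, Dscc1 belongs to an alternative loader, Fen1 cuts the flaps of Okazaki fragments and Lig1 seals them. Fen1 had the largest difference, with 12.30 and 12.57 in controls and 12.79, 12.93 and 12.94 in deficient cells (0.45, SE 0.13, adjusted p = 0.137). Dscc1 read 8.55 and 8.77 against 9.15, 9.02 and 8.91 (difference 0.37, SE 0.13, adjusted p = 0.217). Both were apart on every array on these probe sets. A dimmer Dscc1 probe set differed by 0.85. On the other Fen1 probe set the groups overlapped (difference 0.35, adjusted p = 0.523 over all probe sets).
Lig1 read 11.04 and 10.97 in controls and 11.09, 11.25 and 11.16 in the deficient ones (a difference of 0.16, SE 0.11, adjusted p = 0.541). Pcna, a common marker of cycling cells, read 12.42 and 12.74 against 12.65, 12.65 and 12.74. All 3 deficient arrays lay between the controls (difference 0.10, SE 0.13, adjusted p = 0.796), and its 95% interval ran from -0.23 to 0.42. The median of the 4 genes was 0.26, and 0.37 without control 2. Without control 1 it was 0.23, beside 0.21 for the polymerases, so the order of these 2 groups turned.
Of the 5 RFC genes, Rfc1, the large subunit, read 10.32 and 10.34 in controls and 10.45, 10.92 and 10.68 in the deficient ones (a difference of 0.35, SE 0.16, adjusted p = 0.309). Rfc4 read 9.66 and 10.25 against 10.24, 10.30 and 10.32, with a single low control (difference 0.33, SE 0.18, adjusted p = 0.428). Rfc5, at 10.92 and 11.13 then 11.19, 11.15 and 11.33, differed by 0.20 (SE 0.12, adjusted p = 0.485).
The lowest RFC gene was Rfc3, at 8.30 and 8.82 against 8.52, 8.46 and 8.24 (difference -0.15, SE 0.19, adjusted p = 0.762). Its other probe set differed by 0.25, with the groups overlapping, so its direction was not settled. Rfc2 differed by -0.0076, and by -0.0055 and 0.055 on its other probe sets. The RFC median was 0.20, and 0.03 without control 1.

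RPA, which coats single-stranded DNA in replication and in repair alike, had the smallest median of the groups, 0.07. Rpa1 read 12.90 and 12.92 in controls and 13.14, 13.07 and 12.96 in the deficient ones (a difference of 0.15, SE 0.11, adjusted p = 0.584). Rpa2 read 10.72 and 11.12 against 10.81, 11.16 and 11.01 (difference 0.07, SE 0.17, adjusted p = 0.895). Rpa3 read 9.43 and 9.73 against 9.62, 9.51 and 9.39 (difference -0.07, SE 0.14, adjusted p = 0.866). Rpa1 alone of the 3 was separated between the groups, and its 95% interval ran from -0.12 to 0.42. Without control 1 the RPA median turned to -0.13.

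Fork protection genes had a median of 0.71, the largest of the groups over all 5 arrays but not without control 2 (0.92, against 1.04 for Cdc45 and Mcm10). For all 3 every deficient array lay above both controls (100%, against 16.5% of all genes). All 3 had an unadjusted p under 0.05 in limma (100%, against 8.79% of all genes higher). Timeless and Tipin form a pair that travels with the fork, and Clspn encodes claspin, the adaptor through which a stalled fork signals to the checkpoint kinase CHK1. Tipin read 10.56 and 10.97 in controls and 11.43, 11.54 and 11.45 in deficient cells. The deficient arrays agreed closely and all exceeded control 2 (difference 0.71, SE 0.15, adjusted p = 0.0753, the smallest of the 48), a level 1.64-fold that of controls.
Clspn read 7.93 and 8.32 in controls and 8.76, 9.11 and 8.78 in the deficient ones (a difference of 0.76, SE 0.18, adjusted p = 0.0925). Timeless read 9.68 and 9.58 against 10.06, 10.30 and 9.93 (difference 0.46, SE 0.14, adjusted p = 0.159), and its second probe set gave 0.78 with the smallest adjusted p of the 103 member probe sets (0.0745). The group median was 0.51 without control 1. Each of the 3 kept a difference of at least 0.36 whichever array was left out, and none passed in any of those 5 fits.

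Across all members, 34 of 48 had a positive difference in each of the 5 fits with 1 array left out. Of these 11 stayed at or above 0.3: Clspn, Tipin, Cdc7, Pold1, Pola1, Dbf4, Timeless, Mcm10, Pole, Fen1 and Mcm4. The lowest value came without control 1 for 40 of the 48 genes. Where a gene had more than 1 probe set above the median of all probe sets (30 genes), the signs matched in 24. The 6 exceptions include Orc4, Gins3 and Rfc1, whose probe sets are given here or differed from 0.43 to -0.11 (Rfc1).

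**Figure D4:**
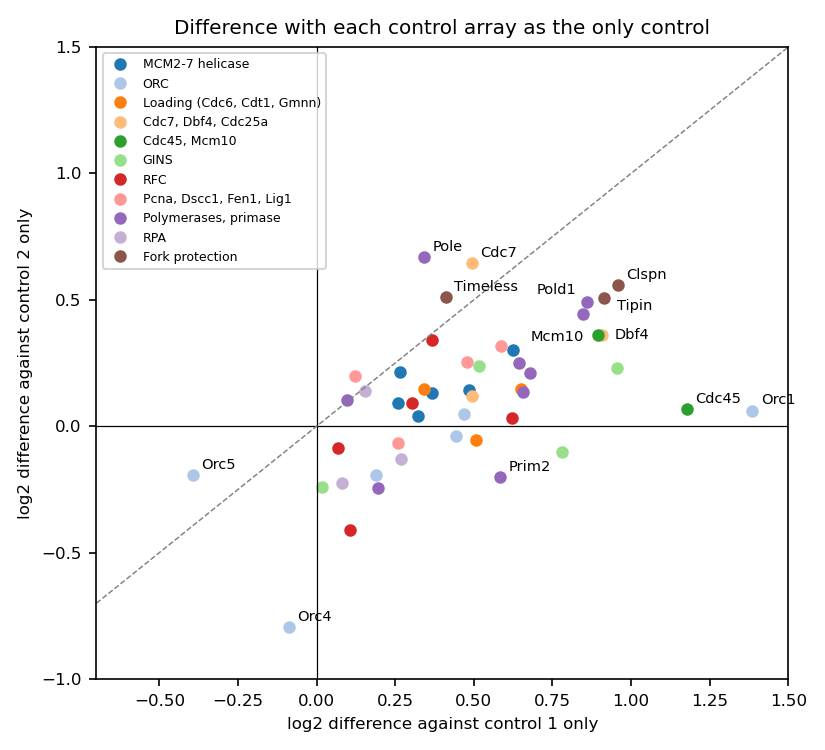
Log2 difference of each of the 48 genes with control 1 as the only control (horizontal axis) and with control 2 as the only control (vertical axis), each against the 3 deficient arrays; the dashed line marks equal values. Most genes lie below the line, Cdc45 (1.18 and 0.07) and Orc1 (1.39 and 0.06) farthest, while Cdc7, Pole and Timeless are among the genes above it.

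Other genes of the pathway, listed for their role (origin firing, alternative clamp loaders, further polymerase subunits, RNase H, licensing control by CRL4, S-phase cyclins), had differences from -0.37 to 1.25 with a median of 0.29. Of 34 listed, 33 were measured and 28 had a higher mean (84.8%, against 48.1% of all genes). Every deficient array lay above both controls for 17 (51.5%, against 16.5% of all genes) and below both for 1 (against 18.6%). In limma 1 passed as higher and 0 as lower, where 0.83% and 1.41% of all genes did. That gene was Ticrr, whose product (treslin) brings Cdc45 to origins under CDK control. Ticrr rose from 6.95 and 7.14 in controls to 8.37, 8.08 and 8.42 in the deficient ones (a difference of 1.25, SE 0.15, adjusted p = 0.0210), a 2.37-fold level.
The Ticrr call held only without deficient 2 among the fits with 1 array left out. Its adjusted p was 0.0968 without control 1, 0.0548 without control 2, 0.0738 without deficient 1 and 0.0776 without deficient 3, with differences from 1.15 to 1.35. Averaging its 3 probe sets gave 0.53 (adjusted p = 0.0841).
The next smallest p-values belonged to the alternative loader gene Chtf18 (6.01 and 6.49 in controls, then 7.11, 7.001 and 7.22; difference 0.86, adjusted p = 0.0672) and the fork scaffold gene Wdhd1 (9.26 and 9.49, then 10.02, 10.004 and 9.87; difference 0.59, adjusted p = 0.0767). Tonsl, which acts at stalled forks, read 8.18 and 8.36 in controls, then 9.13, 8.79 and 8.89 (difference 0.66, adjusted p = 0.0787). Dtl, the CRL4 adaptor that targets Cdt1 for destruction, read 9.66 and 9.91, then 10.47, 10.46 and 10.20 (difference 0.59, adjusted p = 0.101). Its dimmer probe sets differed by -0.12 to 1.29, and on some of them the groups overlapped. Rif1, a regulator of replication timing, read 8.94 and 9.28, then 9.97, 9.57 and 9.81 (difference 0.68, adjusted p = 0.107). On the brightest probe set of each of these 5 genes every deficient array was above both controls. At the other end the small polymerase delta subunit gene Pold4 was lower on every deficient array (difference -0.37, adjusted p = 0.220).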

How the data were processed

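RNA from sorted KLS cells was labelled with biotin and hybridised to Affymetrix arrays, per the labels' protocols. The authors made 1 linear intensity value per probe set and array with RMA, per the submitters' processing notes; its version, or any use of the excluded array in the normalization, is not stated in the labels or files. Values ran from 6.96 to 31249 and log2 was taken here. RMA compresses differences of dim probe sets. For arrays no depth applies, and their number limits the precision.

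Probe sets were named through the platform annotation (34945 with 1 symbol, 932 with several, 9160 with none listed); 1 probe set with several symbols that include a member was left out. Group differences came from lmFit and eBayes of limma 3.58.1 (R 4.3.3; two-sided, no covariate) over 45037 probe sets, without 64 control probe sets, and over 18193 genes, each by its probe set of highest mean. Intervals are 95%. The fit was tested on simulated data. The genes, the sub-complexes, the marker and pathway lists and the tests were chosen with earlier results of these data known. Named with values on every array are up to 3 genes of each sub-complex with the smallest unadjusted p. The gene with the lowest difference is named likewise, and in the pathway list the 6 smallest p. Pold4, Mki67, Cd3g, Klrd1, Cd247, Nkg7, Igha, Jchain, Igll1, Pax5, Xist and Eif2s3y and the second probe sets were chosen after their values were seen. Other normalizations, probe set choices, priors, weights, the replicate number as a block and each array left out were tried as alternatives.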

Additional observations from a re-analysis of the deposited data

How the results depend on the processing

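With 1 array left out, 0 to 1 members were called higher, and 0 to 1 of the other replication genes; over all genes 14 to 46 were called higher and 57 to 169 lower, and over all probe sets 2 to 5 and 21 to 73. Medians ranged from 0.13 to 0.47 over the members, 0.14 to 0.34 (MCM), -0.12 to 0.32 (ORC), 0.15 to 0.51 (loading), 0.36 to 0.66 (kinase step), 0.21 to 1.04 (Cdc45 and Mcm10), 0.063 to 0.65 (GINS), 0.034 to 0.30 (RFC), 0.23 to 0.37 (clamp), 0.21 to 0.64 (polymerases), -0.13 to 0.15 (RPA), 0.51 to 0.92 (fork protection) and 0.25 to 0.49 (other replication genes). The sign turned in at least 1 of these fits for Orc3 (-0.038 to 0.44), Orc6 (-0.19 to 0.19), Cdc6 (-0.052 to 0.51), Gins2 (-0.24 to 0.018), Gins4 (-0.10 to 0.78), Rfc2 (-0.085 to 0.069), Rfc3 (-0.41 to 0.11), Pcna (-0.066 to 0.26), Prim2 (-0.20 to 0.58), Pold2 (-0.25 to 0.20), Rpa2 (-0.13 to 0.27) and Rpa3 (-0.22 to 0.081). None of these genes was called. An intensity trend in eBayes called 2 members higher, Pold1 (adjusted p = 0.0471) and Tipin (adjusted p = 0.0379), and 141 probe sets higher and 260 lower. At an adjusted p under 0.1, 3 members and 4 other replication genes were higher, with 475 genes higher and 590 lower, and 451 and 497 probe sets. Averaging probe sets gave a kinase median of 0.29, 0 other replication genes, and signs turned for Rfc2 (0.014) and Rfc3 (0.048). Without _x_at and _s_at probe sets 2 other replication genes were called and Gins2 read 0.0037. Median centring gave 0.013 for Orc6 and 0.0080 for Rfc2, and array weights 0.0012 for Pold2. Quantile normalization again, cyclic loess and leaving out dim probe sets changed no count of calls by over 1.5 times and no sign among the members, but cyclic loess lowered the ORC median to 0.058 and the RPA median to 0.035, and array weights the RPA median to 0.040. The cause of these changes was not tested. Same-numbered arrays did not deviate together (correlations -0.05 and -0.02), so the numbers were not taken as pairs; with the replicate block 0 other replication genes were called (Ticrr adjusted p = 0.138), 1 gene higher and 20 lower, and 0 and 15 probe sets.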
